A study of Caenorhabditis elegans with 12 samples.

Results

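The comparison of days 6, 9 and 12 with day 0 in CN30 asked how the transcriptome of one strain of the nematode Caenorhabditis elegans shifted with age. Its later class held 3 libraries of whole worms, 1 each at days 6, 9 and 12, and its day-0 class held 3 libraries, together 6 of the 12 libraries of the series. The other 6 libraries are of the laboratory strain N2 at the same ages. The labels give the genotype of CN30 as trans-nuclear, write NC30 for it in the sample titles, and do not name the strains that gave its nucleus and its mitochondria. All worms were fed Escherichia coli OP50 and kept at 20 °C. The labels tie day 0 to no larval or adult stage. They leave it unsaid if its 3 libraries are separate cultures, so the spread at day 0 may be technical. The p-values pool that spread with the spread among days 6, 9 and 12, which holds age differences as well as library differences. With 1 library a day, age and library cannot be told apart among days 6, 9 and 12.

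A gene was followed if it reached 1 FPKM (fragments per kilobase of transcript, scaled to the mapped fragments of a library) in at least 3 of the 6 libraries. Of the 22191 genes of the mRNA table, 15069 did and 7122 did not. The filter let in 767 genes through the later libraries alone and 1476 through the day-0 libraries alone. These had to differ. They stay in every count and share below, which are no support for a change on their account. Tested genes printed below with all 3 values of a class under 1 FPKM are among them. Just inside the filter lay 247 genes whose third-highest value was between 1 and 1.1 FPKM, and just outside lay 268 with a third-highest value between 0.9 and 1 FPKM.

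A worm that has left its last larval stage makes no new cuticle at a moult. A hermaphrodite makes a limited stock of sperm and then switches its germ line to oocytes, which take up yolk proteins secreted by the gut and develop, once fertilised, inside the uterus before they are laid. RNA from a whole worm is therefore a mixture of epidermis, muscle, gut, nerve cells, germ line, sperm and any embryos held inside. These tissues are named below by marker lists. The lists mark tissues and do not measure cell numbers.

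Summed FPKM lay between 726252 and 767859 in the later libraries and between 874694 and 911271 at day 0. Between 13247 and 13460 genes reached 1 FPKM in a later library, against 14249 to 14395 in a day-0 library. Yet fewer genes were listed at 0 in a later library, 2108 to 2387, against 2960 to 3073 in a day-0 library. Read depth is unknown. FPKM are shares of a library, so a gain in one tissue lowers the values of the others. Differences are given as later minus day 0 on the log2(FPKM + 1) scale, with their standard error and the p-value of limma, adjusted over the 15069 genes by Benjamini-Hochberg (n = 3 libraries a class). The scale understates the change of low genes. Values called later follow the order of days 6, 9 and 12. Positions are on WBcel235. Where the 6 values of a gene are printed and it passed, its later values lay all above or all below its day-0 values.

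The change reached most genes and was deeper downward than upward. With an adjusted p under 0.05, 12191 genes (80.9%) passed, of which 6937 rose (46%) and 5254 fell (34.9%). The classes did not overlap in 12597 genes (83.6%), with the later libraries above in 7143 (47.4%) and below in 5454 (36.2%). The counts of each gene list below are set against these shares. Changes of at least 1 on the log2 scale were about as many up (3459) as down (3670), whereas at least 2 was reached by 698 genes that rose and 1965 that fell, and at least 5 by 20 that rose and 201 that fell. The median difference over all genes was 0.24. Median-ratio rescaling of the libraries shifted that median by -0.41 and turned the balance of calls, to 4857 that rose and 6681 that fell, so a change smaller than that shift has no sure direction.

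**Figure D1:**
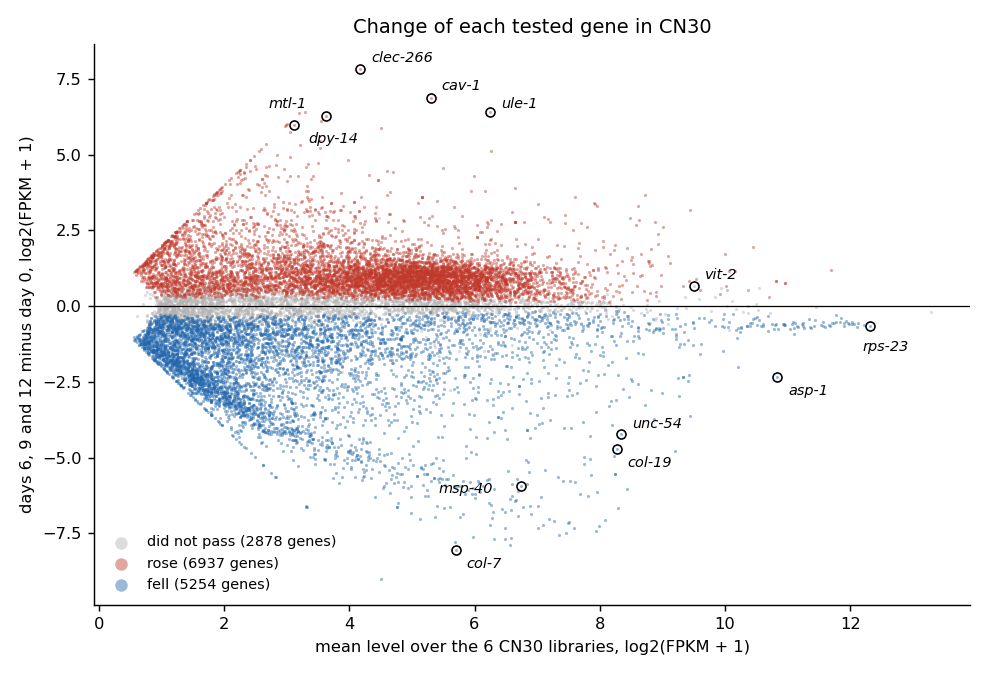
Difference between the later and the day-0 libraries for each of the 15069 tested genes of CN30 (y axis, log2(FPKM + 1), later minus day 0) against the mean level over the 6 libraries (x axis, log2(FPKM + 1)). Red points rose, blue points fell and grey points did not pass; 12 genes of the text are circled, from clec-266 at 7.81 to col-7 at -8.04.

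The balance of calls varied by chromosome. On chromosome X, of 2073 tested genes 37.3% rose and 40.2% fell, with a median of -0.09. On chromosome III 53.4% rose and 27.7% fell, with a median of 0.46, and on chromosome I 52.4% rose and 31% fell, with a median of 0.41. Chromosome IV, with 42.4% that rose and 38.7% that fell, and chromosome V, with 42.2% and 37%, lay between. These shares are descriptions of 1 comparison and were not tested against each other.

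The cuticle genes gave the deepest falls. Collagens of the cuticle, the layered exoskeleton that the epidermis secretes, made up 9 of the 12 named largest falls. Together they held 1.23, 0.295 and 0.127% of the summed FPKM later, against 10.3, 9.19 and 10.4% at day 0, and their median difference from day 0 deepened from day to day, at -3.51, -5.36 and -6.45. By gene, 7 of 137 tested rose, 123 fell and 7 did not pass (median log2 difference -5.14). Fewer cells of a tissue and less RNA per cell cannot be told apart in such a whole-worm sample, here or in any list below.

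The collagen gene col-7 had 13.9, 0.48 and 0.5 FPKM later, against 832, 856 and 842 at day 0, the largest fall by the rule for named genes (-8.04 ± 0.88, adjusted p = 0.000212). The adult collagen col-19, whose gene is switched on at the last moult, had 248, 58.6 and 13.8 FPKM later, against 1643, 1424 and 1701 at day 0 (-4.72 ± 0.94, adjusted p = 0.00332). bli-6 (chromosome IV, 6377065 to 6378168; NCBI gene 177399), a collagen whose mutation blisters the cuticle, had 46.6, 1.12 and 1.33 FPKM later, against 1516, 1298 and 1554 at day 0 (-7.88 ± 1.18, adjusted p = 0.000868). All 3 genes lay below every day-0 value at day 6 already and were lower still at day 9. The collagen dpy-13, whose mutation makes worms short, had 88.3, 1.9 and 3 FPKM later, against 1739, 1397 and 1786 at day 0 (-7.33 ± 1.26, adjusted p = 0.00167).

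A small set of collagens moved the other way. The 7 that rose were dpy-14, dpy-17, col-121, col-95, col-74, col-116 and col-158, the last 4 named after their values were seen, and an assembled locus overlaps col-116; col-74 did not pass without day-0 replicate 3 (adjusted p = 0.0514), and without day 6 its difference was 1.62, against 2.43. dpy-14 had 106, 55.8 and 52.6 FPKM later, against 0.15, 0.05 and 0.07 at day 0 (5.98 ± 0.27, adjusted p = 1.59e-05). dpy-17 had 183, 95.9 and 98.2 FPKM later, against 4.6, 4.06 and 5.11 at day 0 (4.44 ± 0.26, adjusted p = 2.24e-05). Mutations in either gene shorten the body, and both genes were highest at day 6. col-121 had 11.8, 11.8 and 9.88 FPKM later, against 0.02, 0.05 and 0.07 at day 0 (3.53 ± 0.12, adjusted p = 1.13e-05). In dpy-17 the lowest later value lay far above the highest day-0 value. dpy-14 and col-121 passed the filter through the later libraries alone, so their classes had to differ.

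Other products of the epidermis split as well. Of the cuticlins and moulting genes, which build or shed the cuticle, 12 of 41 tested rose, 23 fell and 6 did not pass (median log2 difference -0.46). The cuticlin cut-2, a protein of the insoluble cuticle layer, had 15, 3.69 and 0.73 FPKM later, against 159.5, 133 and 197 at day 0 (-5.00 ± 0.75, adjusted p = 0.000897). The peroxidase gene mlt-7, which acts in cuticle cross-linking, had 5.06, 5.38 and 4.45 FPKM later, against 59.5, 60.5 and 53.1 at day 0 (-3.30 ± 0.10, adjusted p = 1.10e-05). The cuticlin-like gene cutl-16 rose instead, with 28.8, 25.6 and 18.9 FPKM later, against 1.25, 1.43 and 1.3 at day 0 (3.43 ± 0.17, adjusted p = 1.70e-05), and so did cutl-2 (2.76 ± 0.14, adjusted p = 1.81e-05) and cutl-9 (2.78 ± 0.27, adjusted p = 0.00012). Among hedgehog-related and patched-related genes, many of which are made in step with moulting, 6 of 55 tested rose, 41 fell and 8 did not pass (median log2 difference -1.45). The secreted grl-16 had 36.8, 2.66 and 2 FPKM later, against 895, 696 and 889.6 at day 0 (-6.78 ± 0.94, adjusted p = 0.000612). Of the 6 that rose, ptr-22 had 14.3, 23.3 and 23.8 FPKM later, against 1.54, 1.57 and 1.47 at day 0 (3.05 ± 0.21, adjusted p = 3.21e-05).

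Other markers of the epidermis were mixed: 8 of 26 tested rose, 14 fell and 4 did not pass (median log2 difference -0.91). The list shares 2 genes with the collagens and 3 with the embryonic list. mup-4, which anchors muscle through the epidermis, had 18.6, 13.4 and 14.5 FPKM later, against 99.9, 93.7 and 103 at day 0 (-2.61 ± 0.13, adjusted p = 1.66e-05). The intermediate filament gene ifb-1 had 71.2, 41.7 and 39.2 FPKM later, against 294, 267 and 299 at day 0 (-2.53 ± 0.22, adjusted p = 8.31e-05). cnc-2, an antimicrobial peptide made in the epidermis, had 37.8, 33 and 38.4 FPKM later, against 1.15, 0.24 and 0.61 at day 0 (4.52 ± 0.21, adjusted p = 1.60e-05). The metalloprotease gene hch-1, which is needed for hatching, was listed at 0 in all 3 day-0 libraries and had 28.7, 13.1 and 9.72 FPKM at days 6, 9 and 12.

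**Figure D2:**
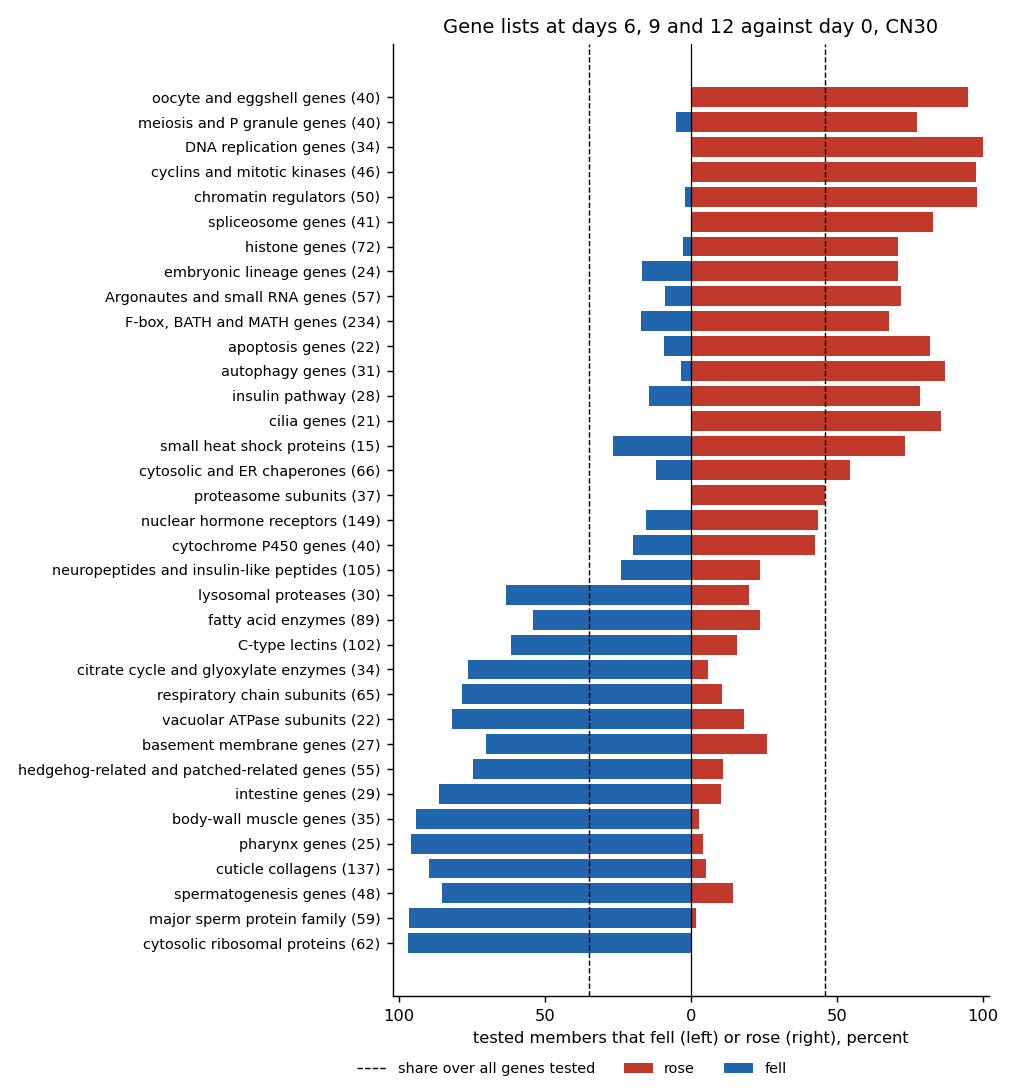
Percent of the tested members of 35 gene lists that rose (red, right) or fell (blue, left) at days 6, 9 and 12 against day 0 in CN30, with the number tested in brackets. Dashed lines mark the shares over all genes, 46% that rose and 34.9% that fell; the DNA replication genes rose in 34 of 34 tested, and the body-wall muscle genes fell in 33 of 35. The balance of the chaperones, proteasome subunits and nuclear hormone receptors turns under median-ratio rescaling.

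Sperm transcripts fell. Major sperm proteins form the cytoskeleton that lets nematode sperm crawl. The list of that family also holds nspd, ssq and sss genes, which belong to other small sperm families. Its members held 0.085, 0.016 and 0.019% of the summed FPKM later, against 1.45, 1.49 and 1.43% at day 0. Among them 1 of 59 tested rose, 57 fell and 1 did not pass (median log2 difference -5.54). The major sperm protein gene msp-40 had 44.5, 4.19 and 10.2 FPKM later, against 799, 876 and 826 at day 0 (-5.92 ± 0.73, adjusted p = 0.000364). msp-77 had 42.4, 5.61 and 8.82 FPKM later, against 747, 778 and 683 at day 0 (-5.70 ± 0.66, adjusted p = 0.000269). Both were lowest at day 9 and not at day 12. The msp genes are near-identical copies, so how reads were shared among them is uncertain.

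The list of sperm formation genes, which shares 9 genes with the major sperm protein list, moved in the same direction: 7 of 48 tested rose and 41 fell (median log2 difference -2.51). The myosin gene spe-15, which helps sperm shed unwanted cell parts, had 6.39, 6.38 and 7.25 FPKM later, against 41.9, 39.4 and 42.4 at day 0 (-2.46 ± 0.09, adjusted p = 1.25e-05). The sperm gene spe-58 had 0.7, 0.37 and 0.15 FPKM later, against 20.9, 19.8 and 19.4 at day 0 (-3.92 ± 0.17, adjusted p = 1.50e-05). The sperm histone H2A gene htas-1 had 2.16, 0.23 and 0.69 FPKM later, against 37.6, 43.3 and 35 at day 0 (-4.40 ± 0.34, adjusted p = 5.00e-05). The 7 that rose held fog-1, a regulator that directs germ cells to the sperm fate, with 20.6, 20.6 and 22.4 FPKM later, against 6.56, 5.63 and 6.03 at day 0 (1.65 ± 0.10, adjusted p = 2.55e-05). Of 17 male genes 4 were tested, of which 1 rose, 2 fell and 1 did not pass. Below the filter, the male mating gene pkd-2 had 0.21, 0.53 and 0.87 FPKM later, against 0.15, 0.21 and 0.35 at day 0. ram-5, also below it, had 0.21, 0.1 and 0.2 FPKM later, against 0.8, 0.48 and 0.33 at day 0.

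Genes of the female germ line mostly rose. Oocyte and eggshell genes held 2.15, 2 and 1.88% of the summed FPKM later, against 0.747, 0.708 and 0.652% at day 0. Among them 38 of 40 tested rose and 2 did not pass (median log2 difference 1.15). perm-4 (chromosome IV, 1121494 to 1125107; NCBI gene 176932), a protein of the eggshell's permeability barrier, had 800.2, 1071 and 1078 FPKM later, against 158, 143 and 149 at day 0 (2.69 ± 0.13, adjusted p = 1.62e-05). The eggshell proteoglycan gene cpg-2 had 1874, 1778 and 1511 FPKM later, against 834, 722 and 732 at day 0 (1.17 ± 0.11, adjusted p = 0.000107). The yolk receptor gene rme-2, by which oocytes take up yolk, had 682, 556 and 479 FPKM later, against 296, 275 and 271 at day 0 (1.01 ± 0.13, adjusted p = 0.000473). The katanin gene mei-1, which cuts microtubules of the meiotic spindle, had 179.9, 180.0 and 178 FPKM later, against 73.6, 69.4 and 72.5 at day 0 (1.31 ± 0.06, adjusted p = 1.56e-05). cyp-31A2, a cytochrome P450 needed for the eggshell, had 168, 169 and 151 FPKM later, against 58.3, 62.9 and 53.6 at day 0 (1.47 ± 0.09, adjusted p = 2.29e-05). The levels of cpg-2 and rme-2 were lower at day 12 than at day 6, whereas perm-4 was higher.

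Of the meiosis and P granule genes, 31 of 40 tested rose, 2 fell and 7 did not pass (median log2 difference 0.74), and under median-ratio rescaling 20 rose and 7 fell. The Notch receptor gene glp-1, which keeps germline stem cells dividing, had 152, 141 and 141 FPKM later, against 63.8, 60.3 and 57.4 at day 0 (1.24 ± 0.07, adjusted p = 2.08e-05). The P granule helicase gene glh-1 fell, with 123, 112 and 131 FPKM later, against 179, 173 and 179 at day 0 (-0.54 ± 0.08, adjusted p = 0.000648). Genes that work in embryos rose as well: of the embryonic lineage list, 17 of 24 tested rose, 4 fell and 3 did not pass (median log2 difference 1.19), and it held 0.053, 0.047 and 0.052% of the summed FPKM later, against 0.021, 0.021 and 0.02% at day 0. The early embryonic transcript vet-1 had 14.4, 8.33 and 10.9 FPKM later, against 0, 0.08 and 0.08 at day 0 (3.50 ± 0.20, adjusted p = 2.03e-05). vet-2 had 23.7, 15.8 and 15.4 FPKM later, against 1.87, 1.61 and 1.29 at day 0 (2.87 ± 0.20, adjusted p = 3.39e-05). At day 0 neither reached 2 FPKM. The endoderm regulator end-1, 1 of 12 members that did not pass the filter, had 0.27, 2 and 2.33 FPKM later, against 0, 0.04 and 0 at day 0. Others of the 12 did not all follow it. ceh-51 had 1.04, 1.21 and 0.9 FPKM later, against 0.04, 0.08 and 0.14 at day 0. med-1 had 0, 0.12 and 0.12 FPKM later, against 0, 0.06 and 0, and sdz-23 was listed at 0 in every library. ceh-36 had 0.74, 0.61 and 0.15 FPKM later, against 0.2, 0.1 and 0.16 at day 0. The part of embryos carried by the worms in the germline, cell cycle and chromatin counts was not tested.

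Genes of dividing nuclei rose. In the DNA replication list 34 of 34 tested rose (median log2 difference 1.26), and they held 0.81, 0.759 and 0.843% of the summed FPKM later, against 0.267, 0.263 and 0.25% at day 0. Thymidylate synthase, tyms-1, had 189, 186 and 207 FPKM later, against 35.4, 32 and 34.1 at day 0 (2.48 ± 0.07, adjusted p = 1.00e-05). The sliding clamp gene pcn-1 had 639.8, 558 and 600.4 FPKM later, against 241, 219 and 221 at day 0 (1.40 ± 0.08, adjusted p = 2.06e-05). The helicase subunit mcm-6 had 233, 223 and 232 FPKM later, against 95.7, 93.8 and 94.1 at day 0 (1.27 ± 0.06, adjusted p = 1.56e-05). Cyclins and mitotic kinases followed: 45 of 46 tested rose and 1 did not pass (median log2 difference 1.01). cyd-1, the cyclin D that drives entry into the cell cycle, had 25, 20.4 and 33.1 FPKM later, against 1.68, 1.43 and 1.39 at day 0 (3.42 ± 0.19, adjusted p = 1.96e-05). Its partner kinase cdk-4 had 25.3, 22.1 and 27 FPKM later, against 4.51, 4.17 and 3.56 at day 0 (2.35 ± 0.13, adjusted p = 1.95e-05). The kinesin zen-4, which acts in the last step of cell division, had 153, 154 and 161 FPKM later, against 57.2, 57.2 and 52.7 at day 0 (1.47 ± 0.07, adjusted p = 1.56e-05).

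Chromatin genes moved with them. Of the chromatin regulators, 49 of 50 tested rose and 1 fell (median log2 difference 1.17). The histone-binding gene lin-53 had 378, 373 and 419.6 FPKM later, against 165, 162 and 157 at day 0 (1.27 ± 0.07, adjusted p = 2.00e-05). The H3K27 demethylase gene utx-1 had 19.1, 20.6 and 22 FPKM later, against 3.35, 3.27 and 2.89 at day 0 (2.37 ± 0.11, adjusted p = 1.60e-05). The germline H3K36 methyltransferase gene mes-4 had 82.1, 76.7 and 82.2 FPKM later, against 31.4, 31.3 and 29.9 at day 0 (1.35 ± 0.07, adjusted p = 1.70e-05). Each kept nearly the same level at days 6, 9 and 12. The single fall was set-30, a histone methyltransferase gene, with 6.02, 10.8 and 12.3 FPKM later, against 16.6, 19.1 and 18 at day 0 (-0.87 ± 0.25, adjusted p = 0.0151), and this fall did not pass without day-0 replicate 2 (adjusted p = 0.0515). Histone genes held 5.28, 5.68 and 3.98% of the summed FPKM later, against 2.34, 2.21 and 2.29% at day 0. Among them 51 of 72 tested rose, 2 fell and 19 did not pass (median log2 difference 1.04). his-32 had 254, 249 and 167 FPKM later, against 8.82, 7.94 and 8.13 at day 0 (4.57 ± 0.17, adjusted p = 1.25e-05), and reads of near-identical histone genes may be shared. Of spliceosome genes, which cut introns from RNA, 34 of 41 tested rose and 7 did not pass (median log2 difference 0.66), and under median-ratio rescaling 17 rose and 5 fell.

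Some yolk and uterine genes parted over the later days. Vitellogenins are yolk precursors that the gut secretes, and the ule genes code for proteins secreted into the uterus. Together they held 1.47, 1.27 and 0.881% of the summed FPKM later, against 0.347, 0.382 and 0.318% at day 0. Among them 6 of 11 tested rose and 5 did not pass (median log2 difference 1.44). vit-5 (chromosome X, 3403471 to 3408603; NCBI gene 180630) had 1901, 895 and 385 FPKM later, against 242, 255 and 209 at day 0 (1.89 ± 0.54, adjusted p = 0.0155), and its adjusted p was 0.05 without day-0 replicate 3. vit-2 had 1526, 1024 and 491 FPKM later, against 603, 602 and 541 at day 0 (0.65 ± 0.39, adjusted p = 0.159). It stood above day 0 at days 6 and 9 and below it at day 12. vit-6 had 2116, 1241 and 686 FPKM later, against 813, 833 and 744 at day 0 (0.61 ± 0.38, adjusted p = 0.177). Neither passed with all 3 later libraries, but both did without day 12 (1.10, adjusted p = 0.00212 for vit-2, and 1.03, adjusted p = 0.00758 for vit-6) and under quantile normalization of all 6 libraries (1.37, adjusted p = 0.00556 for vit-2, and 1.31, adjusted p = 0.0103 for vit-6). The genes ule-4, ule-2 and ule-5 stayed above day 0 through day 12, though ule-5 was lower with each later library. ule-4 had 2274, 3485 and 2666 FPKM later, against 678, 821 and 643 at day 0 (1.96 ± 0.18, adjusted p = 9.30e-05). ule-2 had 383, 505 and 294 FPKM later, against 51.5, 61.1 and 53.3 at day 0 (2.78 ± 0.20, adjusted p = 3.64e-05). ule-5 had 566, 495 and 327 FPKM later, against 66, 64.7 and 68.4 at day 0 (2.75 ± 0.20, adjusted p = 3.89e-05).

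**Figure D3:**
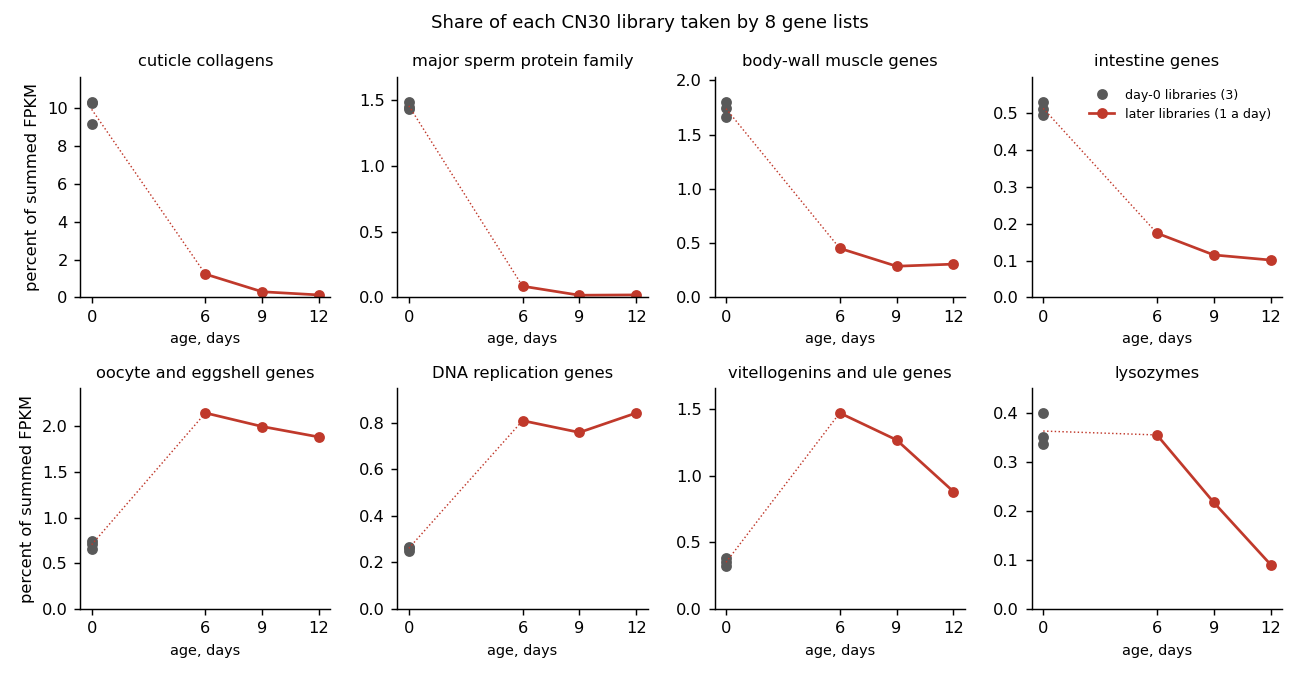
Percent of the summed FPKM of each CN30 library (y axis, each panel from 0) taken by 8 gene lists against age in days (x axis). Grey points are the 3 day-0 libraries and red points the libraries of days 6, 9 and 12, 1 a day; dotted lines run from the mean at day 0. The collagen share at day 12 is 0.127%, and the share of the yolk and uterine genes runs from 1.47% at day 6 to 0.881% at day 12.

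Contractile tissue fell. Body-wall muscle genes held 0.452, 0.287 and 0.306% of the summed FPKM later, against 1.8, 1.67 and 1.75% at day 0. Among them 1 of 35 tested rose, 33 fell and 1 did not pass (median log2 difference -2.72). unc-54, the main myosin heavy chain of body-wall muscle, had 185, 56.1 and 39.2 FPKM later, against 1431, 1308 and 1425 at day 0 (-4.20 ± 0.54, adjusted p = 0.000415). The tropomyosin gene lev-11 had 195, 132 and 158 FPKM later, against 1025, 847 and 974 at day 0 (-2.56 ± 0.15, adjusted p = 2.39e-05). The actin gene act-1 had 368, 254 and 249 FPKM later, against 1541, 1374 and 1456 at day 0 (-2.35 ± 0.16, adjusted p = 3.37e-05), and reads of near-identical actin genes may be shared. Of the pharynx genes, 1 of 25 tested rose and 24 fell (median log2 difference -2.44). The pharyngeal myosin myo-2 had 17.6, 10.9 and 9.66 FPKM later, against 87.4, 77.4 and 82.6 at day 0 (-2.65 ± 0.21, adjusted p = 5.44e-05). The body-wall and pharynx lists share 1 gene, the myosin light chain mlc-1, with 86.1, 34.6 and 23.8 FPKM later, against 697, 658 and 719 at day 0 (-4.02 ± 0.43, adjusted p = 0.000191). Low points came at day 9 for lev-11, and at day 12 for unc-54, myo-2 and mlc-1.

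The gut list fell too: 3 of 29 tested rose, 25 fell and 1 did not pass (median log2 difference -1.65), and it held 0.174, 0.115 and 0.101% of the summed FPKM later, against 0.496, 0.532 and 0.513% at day 0. act-5 (chromosome III, 13604412 to 13606066; NCBI gene 176793), the actin of the gut's microvilli, had 145, 55.2 and 52.5 FPKM later, against 1164, 1115 and 1145 at day 0 (-3.91 ± 0.38, adjusted p = 0.000121). The gut's main transcription factor gene elt-2 fell as well, with 7.22, 8.3 and 8.79 FPKM later, against 18.5, 21.4 and 22.6 at day 0 (-1.26 ± 0.12, adjusted p = 0.000118). acdh-1, an acyl-CoA dehydrogenase whose gene answers to diet, had 177, 46.7 and 6.47 FPKM later, against 1246, 1391 and 1312 at day 0 (-5.04 ± 1.06, adjusted p = 0.0042). Of the 3 that rose, ftn-1, an iron-storing ferritin, had 67.2, 51.6 and 35.4 FPKM later, against 4.8, 6.29 and 7.67 at day 0 (2.83 ± 0.26, adjusted p = 9.79e-05). The metallothionein mtl-2 had 52, 97.2 and 63.1 FPKM later, against 24.1, 22.8 and 27.5 at day 0 (1.43 ± 0.23, adjusted p = 0.00115). The basement membrane, a sheet of matrix under these tissues, lost transcripts as well: 7 of 27 tested rose, 19 fell and 1 did not pass (median log2 difference -1.40). Its type IV collagen gene emb-9 had 66.5, 37.3 and 28.4 FPKM later, against 453, 394 and 467 at day 0 (-3.37 ± 0.29, adjusted p = 7.63e-05). The other, let-2, had 126, 62 and 47.8 FPKM later, against 862, 712 and 884 at day 0 (-3.48 ± 0.34, adjusted p = 0.000129). ost-1, the worm's SPARC protein that escorts this collagen, had 64.6, 50.3 and 44.3 FPKM later, against 397, 378 and 394 at day 0 (-2.87 ± 0.14, adjusted p = 1.60e-05). lam-3, a laminin chain, rose, with 9.51, 9.15 and 7.01 FPKM later, against 2.44, 2.61 and 2.8 at day 0 (1.39 ± 0.14, adjusted p = 0.000165).

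Nerve cell markers were mixed. Of the synaptic and neuronal genes, 8 of 33 tested rose, 14 fell and 11 did not pass (median log2 difference -0.03), a balance that turned to 12 that rose and 7 that fell under quantile normalization and to 14 and 9 with day 12 alone. Without day-0 replicate 1, 2 or 3 the falls numbered 7, 7 and 9, and without replicate 3 only 5 rose. tbh-1, the enzyme that makes octopamine in nerve cells and in the gonad sheath, had 109, 118 and 89.6 FPKM later, against 17, 14.8 and 15.6 at day 0 (2.66 ± 0.12, adjusted p = 1.57e-05). The synaptobrevin gene snb-1, part of the vesicle release machinery, had 101, 118 and 140.3 FPKM later, against 55, 59.4 and 68.3 at day 0 (0.96 ± 0.14, adjusted p = 0.000799). The tubulin acetyltransferase gene mec-17, which works in touch receptor neurons, had 3.21, 2.15 and 2.19 FPKM later, against 12.6, 14.2 and 13.8 at day 0 (-2.06 ± 0.15, adjusted p = 4.31e-05). The alpha-tubulin gene mec-12 had 9, 6.35 and 6.42 FPKM later, against 23.6, 21.5 and 25.7 at day 0 (-1.59 ± 0.15, adjusted p = 0.000122). Genes of cilia, the sensory endings of some nerve cells, were higher later in 18 of 21 tested (median log2 difference 0.93). Their regulator daf-19 had 11.5, 11.2 and 11 FPKM later, against 3.05, 3.09 and 3.13 at day 0 (1.58 ± 0.10, adjusted p = 2.76e-05). The ciliary GTPase gene arl-13 had 3.59, 6.04 and 6.77 FPKM later, against 0.73, 0.61 and 0.47 at day 0 (1.98 ± 0.22, adjusted p = 0.000203).

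Secreted peptides changed in both directions: of neuropeptides and insulin-like peptides, 25 of 105 tested rose, 25 fell and 55 did not pass (median log2 difference -0.15). Under median-ratio rescaling 20 rose and 47 fell, and with day 6 alone 17 rose and 42 fell. nlp-39 had 112, 111 and 57.5 FPKM later, against 0, 0 and 0.17 at day 0 (6.42 ± 0.27, adjusted p = 1.50e-05). nlp-24 had 28, 13.3 and 6.51 FPKM later, against 290.4, 264 and 313 at day 0 (-4.31 ± 0.45, adjusted p = 0.000176). nlp-33 had 6.35, 2.63 and 1.82 FPKM later, against 88.2, 91.1 and 104 at day 0 (-4.49 ± 0.34, adjusted p = 4.75e-05). nlp-33 is a peptide gene of the epidermis that is induced by infection. The insulin-like peptide gene ins-7, a signal from the gut, had 25.4, 22.7 and 9.16 FPKM later, against 4.43, 4.67 and 4.72 at day 0 (1.73 ± 0.36, adjusted p = 0.00407).

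Genes of the cytosolic ribosome and of the respiratory chain mostly fell, by small steps. Of the cytosolic ribosomal proteins 60 of 62 tested fell and 2 did not pass (median log2 difference -0.63), and they held 13.9, 15.1 and 14.4% of the summed FPKM later, against 18.3, 18.3 and 18.6% at day 0. Under quantile normalization 15 fell and 2 rose. rps-23 had 4138, 4140.3 and 3893 FPKM later, against 6306, 6101 and 6671 at day 0 (-0.65 ± 0.09, adjusted p = 0.000638). rpl-11.2 fell too, with 386, 481 and 493 FPKM later, against 1315, 1268 and 1456 at day 0 (-1.57 ± 0.12, adjusted p = 4.29e-05). Of the mitochondrial ribosomal proteins 16 of 67 tested rose, 17 fell and 34 did not pass (median log2 difference -0.04). That balance was not firm: 4 rose and 41 fell under quantile normalization, 2 rose and 52 fell under median-ratio rescaling, and 10 rose and 16 fell without day 9. The list of respiratory chain subunits, which are coded in the nucleus here, also holds assembly factors and enzymes of ubiquinone synthesis. Its members fell in 51 of 65 tested and rose in 7 (median log2 difference -0.66). The ATP synthase subunit asb-2 had 181, 141 and 141 FPKM later, against 554, 534 and 573 at day 0 (-1.85 ± 0.11, adjusted p = 2.41e-05). The complex III core protein ucr-2.2 had 47.5, 39.8 and 35.7 FPKM later, against 139, 135 and 144 at day 0 (-1.75 ± 0.11, adjusted p = 2.73e-05). Factors that assemble these complexes were among those that rose: nuaf-1 had 31.1, 39.4 and 37.7 FPKM later, against 17, 18.9 and 16.1 at day 0 (1.01 ± 0.12, adjusted p = 0.000276). cox-11 had 44.9, 54.2 and 46.9 FPKM later, against 26.5, 29.5 and 26.9 at day 0 (0.79 ± 0.10, adjusted p = 0.00035).

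In central metabolism, citrate cycle and glyoxylate enzymes fell: 2 of 34 tested rose, 26 fell and 6 did not pass (median log2 difference -0.66). suca-1, which makes succinate from succinyl-CoA, had 117, 98.7 and 104 FPKM later, against 226, 222 and 239 at day 0 (-1.10 ± 0.08, adjusted p = 4.39e-05). Glycolysis enzymes fell in part, as 5 of 30 tested rose, 19 fell and 6 did not pass (median log2 difference -0.45), and its glyceraldehyde 3-phosphate dehydrogenase genes parted. gpd-1 had 598, 454 and 391 FPKM later, against 255, 238 and 212 at day 0 (1.01 ± 0.16, adjusted p = 0.0013). gpd-2 had 145, 105 and 114 FPKM later, against 434, 423 and 429 at day 0 (-1.82 ± 0.12, adjusted p = 3.21e-05), and gpd-3 had 224, 177 and 167 FPKM later, against 644, 609.5 and 616 at day 0 (-1.72 ± 0.12, adjusted p = 3.34e-05). These genes are near-identical in pairs, so reads may be shared within a pair. The remaining machinery of protein synthesis had no sure direction: aminoacyl-tRNA synthetases rose in 15 and fell in 3 of 29 tested, but 12 fell under median-ratio rescaling and 1 fell without day-0 replicate 1, day-0 replicate 2 or day 9, with 9, 10 and 10 that rose. Translation factors rose in 16 and fell in 8 of 44, but in 3 and 30 under that rescaling, and nucleolar genes rose in 18 and fell in 5 of 33, but in 6 and 13.

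Genes of fat metabolism fell more often than they rose. Of fatty acid enzymes and carriers, 21 of 89 tested rose, 48 fell and 20 did not pass (median log2 difference -0.56). The desaturase gene fat-7 had 40.1, 8.44 and 2.58 FPKM later, against 88.9, 95.7 and 98.3 at day 0 (-3.09 ± 0.82, adjusted p = 0.0115). The fatty acid carrier lbp-7 had 9.43, 9.89 and 7.87 FPKM later, against 81.5, 73.5 and 82.8 at day 0 (-3.00 ± 0.11, adjusted p = 1.15e-05). The lipase gene atgl-1, which breaks down stored fat, had 59.3, 58.4 and 70.8 FPKM later, against 29.1, 28.9 and 26.4 at day 0 (1.13 ± 0.10, adjusted p = 8.17e-05). plin-1, the perilipin that coats fat droplets, had 227, 231 and 268 FPKM later, against 119, 108 and 107 at day 0 (1.11 ± 0.09, adjusted p = 5.63e-05). The droplet protein dhs-3 had 30.1, 19.8 and 9.82 FPKM later, against 99.8, 117 and 106 at day 0 (-2.50 ± 0.36, adjusted p = 0.000748). dgat-2, which makes triglyceride, had 7.07, 6.89 and 7.47 FPKM later, against 32.4, 33.2 and 39.8 at day 0 (-2.14 ± 0.11, adjusted p = 1.74e-05). Of the lysosomal lipases and droplet genes as a list, 6 of 16 tested rose, 5 fell and 5 did not pass (median log2 difference 0.15), and 3 fell without day-0 replicate 1 or 3.

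Transcripts of the lysosomal protease list mostly fell, and its share was lower with each later library. The list also holds scav and lmp genes, which are not proteases. In it 6 of 30 tested rose, 19 fell and 5 did not pass (median log2 difference -1.25). Its members held 0.856, 0.586 and 0.362% of the summed FPKM later, against 1.28, 1.36 and 1.32% at day 0. asp-1 (chromosome V, 19049562 to 19050752; NCBI gene 180251), an aspartyl protease of the gut, had 1332, 846 and 472 FPKM later, against 4188, 4086 and 4085 at day 0 (-2.34 ± 0.35, adjusted p = 0.000876). cpl-1, the cathepsin L protease, had 591, 389 and 323 FPKM later, against 1004, 976 and 1032 at day 0 (-1.25 ± 0.21, adjusted p = 0.00159), a fall that did not pass under quantile normalization (adjusted p = 0.0548). The cathepsin F-like gene tag-196 rose, with 74.5, 83.5 and 86.5 FPKM later, against 22.2, 23.8 and 23.1 at day 0 (1.78 ± 0.08, adjusted p = 1.60e-05), and so did scav-3, which keeps lysosomes intact, with 57.7, 59.5 and 54 FPKM later, against 25.8, 27.7 and 27.1 at day 0 (1.06 ± 0.07, adjusted p = 3.51e-05). Of the subunits of the vacuolar ATPase, the proton pump that acidifies lysosomes, 4 of 22 tested rose and 18 fell (median log2 difference -1.01), with vha-13 at 192, 149 and 133 FPKM later, against 459, 428 and 443 at day 0 (-1.50 ± 0.14, adjusted p = 9.43e-05).

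Of the lysozymes, which split bacterial cell walls, 4 of 12 tested rose and 8 fell (median log2 difference -2.00), and 5 fell without day-0 replicate 2 or 3. lys-4 had 144, 57.6 and 39.1 FPKM later, against 420.3, 543 and 479.5 at day 0 (-2.78 ± 0.45, adjusted p = 0.00127). lys-7 (chromosome V, 3481432 to 3482600; NCBI gene 178772), an intestinal lysozyme gene, rose, with 1161, 996 and 416 FPKM later, against 76.6, 77 and 70.3 at day 0 (3.38 ± 0.37, adjusted p = 0.000214). It shared the decline across the later libraries: its level at day 12 was below that at day 6, though still above day 0. The list's median log2 difference between day 12 and day 6 was -1.25, against -0.06 over all genes.

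**Figure D4:**
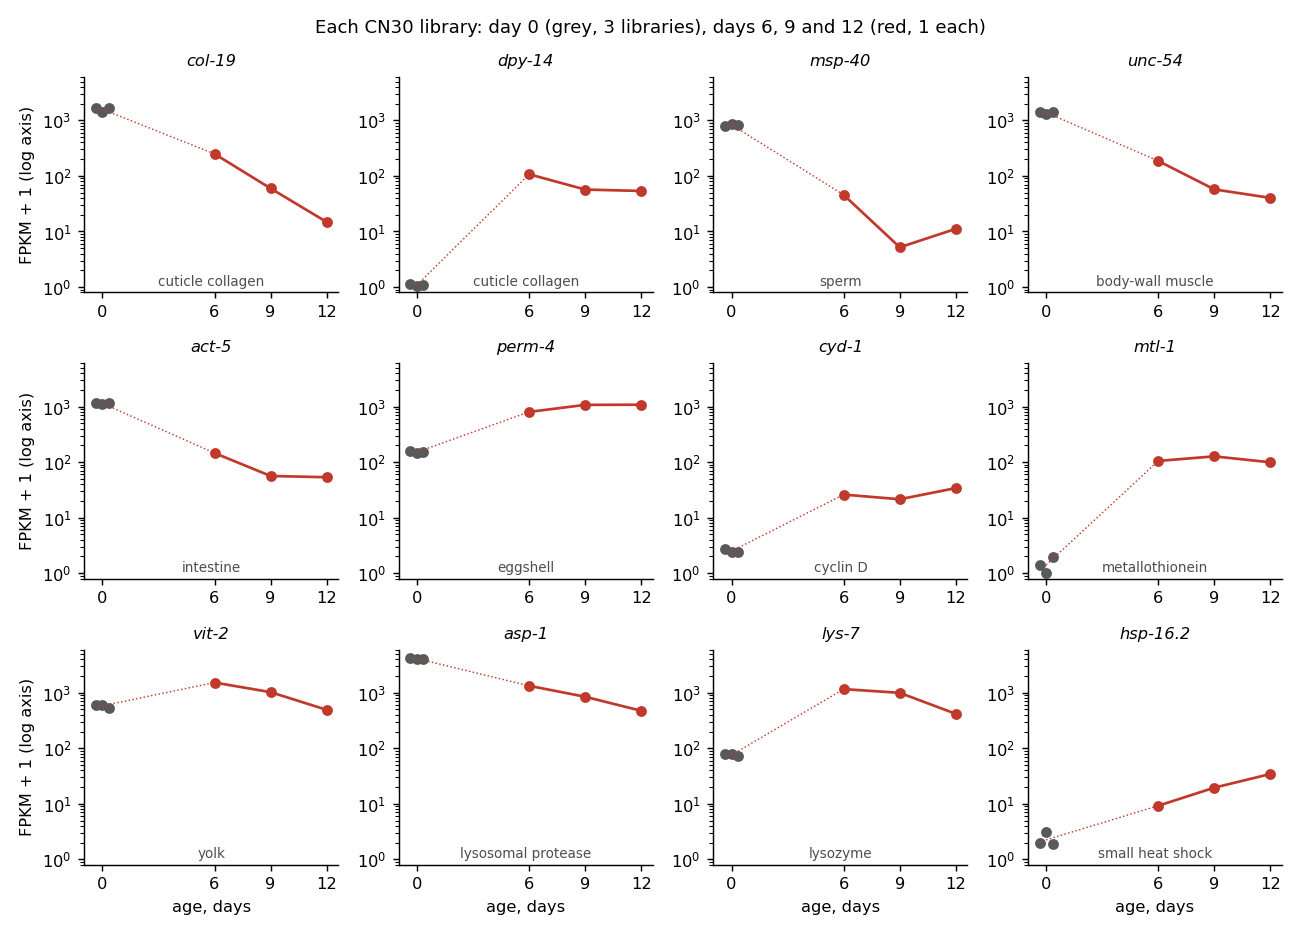
FPKM + 1 (y axis, log scale) of 12 genes in each CN30 library against age in days (x axis). Grey points are the 3 day-0 libraries, drawn side by side, and red points the libraries of days 6, 9 and 12, 1 a day; dotted lines run from the mean of the day-0 log values. col-19, asp-1, vit-2 and lys-7 decline from day 6 to day 12, and hsp-16.2 climbs to 33.5 FPKM at day 12.

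Other genes of defence held large changes in both directions. Of the C-type lectins, sugar-binding proteins many of which microbes induce, more fell than rose (16 of 102 tested rose, 63 fell and 23 did not pass (median log2 difference -1.22)), yet the list held 0.66, 0.516 and 0.477% of the summed FPKM later, against 0.435, 0.468 and 0.457% at day 0. clec-266 (chromosome X, 6617393 to 6622915; NCBI gene 180932) had 369, 196 and 271 FPKM later, against 0.13, 0.14 and 0.35 at day 0, the largest rise by the rule for named genes (7.81 ± 0.23, adjusted p = 1.00e-05). clec-196 had 16.1, 18.1 and 18.9 FPKM later, against 0.07, 0.29 and 0.06 at day 0 (4.04 ± 0.14, adjusted p = 1.13e-05). clec-87 had 2146, 1759 and 1717 FPKM later, against 611, 538 and 542 at day 0 (1.73 ± 0.11, adjusted p = 2.86e-05) and was the highest member in every library of days 6 to 12. clec-63, also high at day 0, had 249, 165 and 93.8 FPKM later, against 810.1, 821 and 841 at day 0 (-2.39 ± 0.33, adjusted p = 0.000587). Of the saposin-like and antimicrobial peptides, 17 of 56 tested rose, 26 fell and 13 did not pass (median log2 difference -0.57): the antimicrobial peptide gene abf-2 had 62.6, 84.2 and 64 FPKM later, against 0.33, 1.42 and 1.06 at day 0 (5.23 ± 0.25, adjusted p = 1.60e-05). fipr-3 had 3.48, 3.24 and 2.11 FPKM later, against 31.9, 28.4 and 32.4 at day 0 (-3.03 ± 0.17, adjusted p = 1.95e-05). Of the infection response genes 18 of 41 tested rose (43.9%), 14 fell (34.15%) and 9 did not pass (median log2 difference 0.44). These shares lay near those over all genes, 46% and 34.9%, and with a filter of 5 FPKM 7 rose and 10 fell. irg-8 had 33, 9.8 and 3.26 FPKM later, against 307, 334 and 338 at day 0 (-4.82 ± 0.69, adjusted p = 0.000724). The peroxidase gene skpo-1 had 154, 162 and 124 FPKM later, against 46.1, 45.2 and 42.9 at day 0 (1.68 ± 0.11, adjusted p = 2.98e-05).

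Small heat shock and autophagy genes mostly rose. Of the small heat shock proteins, which hold unfolded proteins, 11 of 15 tested rose and 4 fell (median log2 difference 2.97). hsp-16.2 had 8.25, 18.6 and 33.5 FPKM later, against 0.99, 2.06 and 0.86 at day 0 (3.04 ± 0.48, adjusted p = 0.00118). hsp-16.41 had 4.75, 11.4 and 20.4 FPKM later, against 0.36, 0.53 and 0 at day 0 (3.17 ± 0.47, adjusted p = 0.000847). Both were higher with each later library. sip-1, a small heat shock protein of oocytes and embryos, had 289.9, 274 and 216 FPKM later, against 94.7, 80.2 and 72.5 at day 0 (1.64 ± 0.15, adjusted p = 8.51e-05). hsp-25, found in muscle, fell, with 28.9, 18 and 19.3 FPKM later, against 104, 92.9 and 97.5 at day 0 (-2.13 ± 0.18, adjusted p = 6.56e-05), and so did hsp-12.2 (-2.52 ± 0.24, adjusted p = 0.000116). Cytosolic and ER chaperones had 36 that rose and 8 that fell of 66 tested, but 21 and 30 under median-ratio rescaling. The mitochondrial chaperonin hsp-60 fell, with 296, 221 and 228 FPKM later, against 569, 532 and 551 at day 0 (-1.16 ± 0.12, adjusted p = 0.000171).

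Of the autophagy genes, which deliver cell parts to lysosomes, 27 of 31 tested rose, 1 fell and 3 did not pass (median log2 difference 1.30). The receptor gene sqst-1 (chromosome IV, 12034282 to 12036891; NCBI gene 178139), which ties ubiquitin-marked cargo to autophagy, had 87.9, 152 and 229.9 FPKM later, against 33.4, 31.8 and 37 at day 0 (2.07 ± 0.33, adjusted p = 0.00113). Its scaffold partner epg-7 had 26.6, 26.3 and 31.8 FPKM later, against 9.24, 9.33 and 9.48 at day 0 (1.49 ± 0.10, adjusted p = 3.58e-05). atg-16.1, which acts in membrane growth, had 15.1, 15.1 and 16.2 FPKM later, against 3.51, 4.4 and 4.07 at day 0 (1.72 ± 0.12, adjusted p = 3.15e-05). The mitophagy receptor dct-1 had 43.5, 54.1 and 75.5 FPKM later, against 6.56, 6.75 and 7.74 at day 0 (2.84 ± 0.20, adjusted p = 3.79e-05). sqst-1 and dct-1 were higher with each later library, while epg-7 and atg-16.1 were nearly level. Proteasome subunits rose in 17 of 37 tested (45.95%), near the 46% over all genes, and fell in 0, against 34.9% over all genes (median log2 difference 0.16). Under median-ratio rescaling 4 rose and 21 fell, and 5 fell without day 6.

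Metal and detoxification genes were led by 1 metallothionein. mtl-1 (chromosome V, 6691371 to 6691863; NCBI gene 179060) had 104, 126 and 98.2 FPKM later, against 0.42, 0 and 0.95 at day 0 (6.29 ± 0.25, adjusted p = 1.41e-05). Of the cytochrome P450 genes, 17 of 40 tested rose (42.5%), 8 fell (20%) and 15 did not pass (median log2 difference 0.44). The share that rose lay near the 46% over all genes, and the share that fell was below 34.9%. Among those that rose was cyp-13A5, with 69.1, 113 and 85.6 FPKM later, against 4.23, 2.98 and 3.16 at day 0 (4.32 ± 0.20, adjusted p = 1.60e-05). UDP-glycosyltransferases fell more often than they rose, as 12 of 50 tested rose, 27 fell and 11 did not pass (median log2 difference -0.67). ugt-62 had 17.7, 18.3 and 14 FPKM later, against 84.3, 126 and 94.1 at day 0 (-2.52 ± 0.17, adjusted p = 3.45e-05). Of glutathione S-transferases, 12 of 39 tested rose, 17 fell and 10 did not pass (median log2 difference -0.41), with gst-24 at 23.4, 33.5 and 51.8 FPKM later, against 6.04, 5 and 5.69 at day 0 (2.43 ± 0.27, adjusted p = 0.000239).

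In signalling and gene regulation, the insulin pathway list, which links nutrients to lifespan, had 22 that rose and 4 that fell of 28 tested (median log2 difference 0.99). aap-1, an adaptor of the pathway's lipid kinase, had 70.6, 80.5 and 81.5 FPKM later, against 26.6, 27.4 and 26.9 at day 0 (1.49 ± 0.08, adjusted p = 1.89e-05). sod-3, a superoxide dismutase gene often read as its output, fell, with 4.27, 3.53 and 3.63 FPKM later, against 7.37, 8.34 and 8.26 at day 0 (-0.90 ± 0.12, adjusted p = 0.000523), and so did dod-17 (-3.36 ± 0.50, adjusted p = 0.000863). Of the nuclear hormone receptors, 65 rose (43.62%) and 23 fell (15.44%) of 149 tested, but 38 and 49 under median-ratio rescaling. The share that rose lay near the 46% over all genes, and the share that fell was below 34.9%. sex-1, a receptor gene that acts in sex determination, had 24.3, 28 and 33.1 FPKM later, against 3.5, 3.48 and 2.45 at day 0 (2.83 ± 0.17, adjusted p = 2.31e-05). nhr-68, which acts in propionate metabolism, had 13.3, 7.74 and 3.66 FPKM later, against 40.1, 49.8 and 38.5 at day 0 (-2.38 ± 0.39, adjusted p = 0.00134).

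Genes of small RNA pathways mostly rose. Of the Argonautes and their helpers, 41 of 57 tested rose, 5 fell and 11 did not pass (median log2 difference 0.79). nrde-3, which carries small RNAs into the nucleus, had 41.9, 37.6 and 38.9 FPKM later, against 5.72, 6.02 and 6.13 at day 0 (2.54 ± 0.09, adjusted p = 1.13e-05). The Piwi gene prg-1 had 292, 306 and 310.0 FPKM later, against 185, 186 and 178 at day 0 (0.72 ± 0.06, adjusted p = 6.17e-05). alg-4, which works in sperm formation, had 2.68, 0.7 and 0.7 FPKM later, against 47.3, 48.2 and 47.9 at day 0 (-4.47 ± 0.31, adjusted p = 3.47e-05). F-box, BATH and MATH genes, adaptors that choose proteins for ubiquitin tagging, rose in 159 and fell in 40 of 234 tested (median log2 difference 1.03), with fbxc-51 at 24.7, 21.8 and 25.1 FPKM later, against 0.14, 0.19 and 0.07 at day 0 (4.45 ± 0.12, adjusted p = 9.52e-06). In the cell death list 18 of 22 tested rose and 2 fell (median log2 difference 0.95), among them the engulfment receptor ced-1, with 52.8, 54.8 and 53.3 FPKM later, against 19.8, 18.1 and 19.1 at day 0 (1.45 ± 0.07, adjusted p = 1.70e-05). Tubulins parted: tbb-4 had 54.1, 44.7 and 59.4 FPKM later, against 2.63, 3.06 and 3.25 at day 0 (3.75 ± 0.14, adjusted p = 1.18e-05). tba-4 had 32, 29.5 and 34.6 FPKM later, against 235, 226 and 242 at day 0 (-2.84 ± 0.08, adjusted p = 9.52e-06).

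The 3 later libraries also differed among themselves. On the log2 scale 868 genes were at least 1 apart between days 9 and 6, 460 between days 12 and 9, and 1573 between days 12 and 6, against 81 to 169 between pairs of day-0 libraries. Of the 1573, 513 were higher at day 12 and 1060 lower. The median SD over genes was 0.19 among the later libraries and 0.11 at day 0. Genes at least 3 lower than at day 0 on the log2 scale numbered 643 at day 6, 1052 at day 9 and 1181 at day 12, and those at least 3 higher 227, 246 and 286. Collagens deepened most among the lists, with a median of -2.96 between day 12 and day 6.

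Single genes with steady steps from day 6 to day 12 are given with no test of the steps. B0507.8 had 4.46, 28.9 and 44.4 FPKM later, against 0.08, 0.17 and 0.25 at day 0 (4.07 ± 0.75, adjusted p = 0.00235). ddn-1 had 6.77, 38.2 and 53.1 FPKM later, against 0.44, 0.55 and 0.56 at day 0 (4.07 ± 0.70, adjusted p = 0.00165). pals-4, of a family that answers to intracellular infection, had 1.55, 10.1 and 17.5 FPKM later, against 0.23, 0.26 and 0.31 at day 0 (2.67 ± 0.69, adjusted p = 0.0104). The steepest steady fall outside overlapping loci was that of the collagen col-20, with 271, 39.9 and 2.53 FPKM later, against 1697, 1485 and 1636 at day 0 (-5.56 ± 1.45, adjusted p = 0.0108).

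How reads were shared between annotated genes and loci assembled from the libraries limits some values. Of annotated genes with an assembled locus on the same strand, 50.5% rose and 26.3% fell of 2859 tested, against 42.9% and 39.7% of 9653 without one. Genes with at least 5 FPKM in one class and listed at 0 in the other were 46 at 0 in all later libraries and 53 at 0 in all day-0 libraries. Of these, 40 and 40 overlapped such a locus (87% and 75.5%), against 22.9% of all annotated genes tested. The engulfment adaptor ced-6 was listed at 0 in all day-0 libraries and had 24, 33.8 and 33.6 FPKM at days 6, 9 and 12. The assembled locus MXLOC_007682 over it had 49.8, 48.8 and 46.5 FPKM later, against 53.1, 52.9 and 53 at day 0 and did not pass (-0.13 ± 0.06, adjusted p = 0.1), though it fell by 0.48 under quantile normalization and by 0.59 under median-ratio rescaling. The muscle gene pat-6 was listed at 0 in all 3 later libraries and had 13.6, 10.1 and 10.1 FPKM at day 0, while MXLOC_012045 over it had 30.7, 31.6 and 26.9 FPKM later, against 29.5, 31.7 and 32.5 at day 0 (-0.07 ± 0.09, adjusted p = 0.502) and fell by 0.42 and 0.53 under the same settings. Such zeros, like that of hch-1 above, are not read here as a change of the gene. The genes that hold them were tested like the others and stay in the counts of their lists.

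The change over age in CN30 was set against that in N2 by the interaction of strain and age class over all 12 libraries. The term is the log2 difference of later and day-0 libraries in CN30 minus that in N2. The later libraries of the strains also differed in the number of genes that reached 1 FPKM. That number was 11831, 11934 and 12565 in N2, against 13460, 13315 and 13247 in CN30. At day 0 it was 14046, 13369 and 14264 in N2, against 14249, 14395 and 14278 in CN30. How far this difference between libraries enters the term was not tested. Of 15719 genes tested, 315 differed (2%), 181 with a higher term (1.15%) and 134 with a lower one (0.852%). Lists with at least 2 lower terms, among the genes tested in that fit, were the C-type lectins (9 of 110), the oocyte and eggshell genes (4 of 40), the DNA replication genes (2 of 34), the cyclins and mitotic kinases (2 of 47) and the saposin-like and antimicrobial peptides (2 of 57). Lists with at least 2 higher terms had 2 each: the small heat shock proteins (of 15), the insulin pathway (of 28), the cilia genes (of 22), the transthyretin-like genes (of 51) and the F-box, BATH and MATH genes (of 258). The share of the F-box, BATH and MATH genes lay below the 1.15% over all genes. The small heat shock and insulin lists share 1 gene. Most of these counts are of 2 genes, and no list was tested as a set. dut-1, which keeps uracil out of DNA, averaged 366 ± 19.6 FPKM against 115 ± 5.59 FPKM in later and day-0 CN30 libraries (SD, n = 3 each), and 454 ± 19.9 FPKM in later N2 libraries and 83.8 ± 7.44 FPKM in N2 at day 0. Its term was -0.77 ± 0.11, adjusted p = 0.01. mei-2, the partner of mei-1 in the meiotic spindle, averaged 236 ± 8.58 FPKM against 99 ± 3.78 FPKM in CN30, and 272 ± 8.88 FPKM in later N2 libraries and 76 ± 5.47 FPKM in N2 at day 0, with a term of -0.58 ± 0.09, adjusted p = 0.0172. Both terms were negative, so the difference was smaller in CN30. The call of mei-2 was lost under quantile normalization (adjusted p = 0.0573) and without CN30 day-0 replicate 1 or 2, N2 day-0 replicate 1 or N2 day 6 (adjusted p between 0.0508 and 0.0566), while dut-1 passed in each of these fits. hsp-12.6, a small heat shock gene, had 17.4, 14.8 and 15.8 FPKM later, against 0.64, 0.57 and 1.19 at day 0 in CN30 (3.25 ± 0.16, adjusted p = 1.73e-05), and 6.33 ± 1.53 FPKM in later N2 libraries and 0.953 ± 0.249 FPKM in N2 at day 0. Its term of 1.36 ± 0.27, adjusted p = 0.0363 was lost with a pseudocount of 0.1 (adjusted p = 0.0831) and in 7 of the 12 fits that leave out 1 library (adjusted p between 0.0698 and 0.107): those without CN30 day-0 replicate 1 or 2, CN30 day 9 or 12, N2 day-0 replicate 1 or 3, or N2 day 6. Leaving out 1 library moved the count of 315 by more than 1.5 times in every case. It was 70 without N2 day-0 replicate 1, 1091 without N2 day-0 replicate 2 and 131 without N2 day-0 replicate 3. Without N2 day 6, day 9 or day 12 it was 86, 121 and 2031, without CN30 day 6, day 9 or day 12 it was 817, 97 and 131, and without CN30 day-0 replicate 1, 2 or 3 it was 124, 86 and 113.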

How the data were processed

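Whole-worm RNA of 6 CN30 libraries was compared, 1 each at days 6, 9 and 12 against 3 at day 0. The authors deposited FPKM per gene and library in a table of mRNA genes, per the file headers, with replicates not pooled. HISAT, StringTie and WBcel235 are named per the submitters' processing notes, with no versions or roles. A deposited table of assembled transcripts, with positions and lengths as its other units per the file headers, gave the loci written MXLOC. Every column of values was matched to a sample. Symbols and positions come from RefSeq's WBcel235 annotation. Sequences were not used here.

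For each gene, log2(FPKM + 1) was fitted by limma 3.58.1 under R 4.3.3, with moderated variances (eBayes, trend), taking genes of at least 1 FPKM in at least 3 libraries of a fit. Two-sided p-values were adjusted after Benjamini and Hochberg across every gene of a fit and called under 0.05. With 3 libraries against 3, the lowest p an exact permutation test allows is 0.1, so calls rest on limma's pooled spread. The strain by age class term was fitted over all 12 libraries. Without counts, the precision that depth gives cannot be stated.

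The comparison, its 58 gene lists and the rule for named genes were chosen with earlier results of these data known. The rule took the 12 largest rises and 12 largest falls, at most 9 members per list (the 4 smallest p, the 2 highest levels and up to 3 against the list's direction), the steadiest changes over the later days, the largest interaction terms and genes listed by name. Others in the text, namely 4 collagens, hsp-16.41 and a pair of assembled loci, were chosen after their values were seen. The settings varied were the pseudocount (0.1), the filter (none, or 5 FPKM), quantile normalization, median-ratio rescaling, robust shrinkage, a joint fit, single later ages, and each library left out in turn. In simulated data, 100 genes were shifted by a log2 of 1 and another 100 by 2: the comparison called 59% and 95% of them with 3.75% of calls false, and the interaction 44% and 77% with 7.63% false. The shifted genes were drawn above a minimum mean level, all other genes were unchanged, and the noise was independent between libraries. In the data 80.9% of genes passed in the comparison, so the simulated rates do not carry over to it. Python 3.11.15 ran the tables and figures, using NumPy 2.4.6, pandas 2.3.3 and Matplotlib 3.10.9.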

Additional observations from a re-analysis of the deposited data

Results flagged for a closer look

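The change over age differed between the strains, by the interaction term of limma, for 3 genes described above. dut-1 had a term of -0.77 ± 0.11, adjusted p = 0.01 and mei-2 one of -0.58 ± 0.09, adjusted p = 0.0172, so the difference between later and day-0 libraries was smaller in CN30 than in N2. hsp-12.6 had a term of 1.36 ± 0.27, adjusted p = 0.0363, so its difference was larger in CN30. The calls of mei-2 and hsp-12.6 were lost in 4 and 7 of the 12 fits that leave out 1 library, that of mei-2 also under quantile normalization and that of hsp-12.6 with a pseudocount of 0.1. The 3 later libraries of a strain are of different days, and groups of 3 libraries were too small to be searched for outlying samples.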

How the results depend on the processing

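The count of 12191 genes that passed in CN30 lay between 11403 and 12489 with 1 library left out, and between 9268 (filter of 5 FPKM) and 13801 (no filter) under the other settings, with 56.9% of calls rising against 42.1% under median-ratio rescaling. Among genes of the text, vit-2 and vit-6 turned with day 12 alone (-0.24 and -0.21), and MXLOC_012045 with day 9 alone (0.0204). Beside the lists whose other balance stands with them above, median-ratio rescaling gave 37 histone genes that rose and 7 that fell, and 32 and 10 Argonautes and their helpers. It also gave 12 and 63 fatty acid enzymes, 6 and 23 glutathione S-transferases, 2 and 24 glycolysis enzymes, and 3 and 59 members of the respiratory chain list. Quantile normalization gave 94 and 12 nuclear hormone receptors, 23 and 4 proteasome subunits, and 174 and 20 F-box, BATH and MATH genes. A filter of 5 FPKM tests fewer genes, and left 4 cilia genes and 8 embryonic lineage genes that rose. No paired analysis was possible because the later libraries carry no replicate numbers shared with day 0. For the interaction, 315 genes passed (181 higher, 134 lower). The count was 194 with a pseudocount of 0.1 (118 higher, 76 lower) and 523 under median-ratio rescaling (325 higher). With the replicate number and day as a block shared by the strains it was 709 (464 higher, 245 lower), while day-0 libraries with the same number in both strains correlated at 0.04, -0.04 and -0.01 in their deviations over genes, so the numbers were not taken to pair them. With 1 library left out it lay between 70 and 2031 (39 to 1436 higher, 31 to 595 lower). The cause was not tested. Depth is unknown and each later day has 1 library, so differences among days 6, 9 and 12 have no replicate check. Genes with overlapping loci or near-identical copies have uncertain levels.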
